A study of Mus musculus with 43 samples.

Results

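The comparison described here is of mouse full-grown oocytes that lack PCGF1, PCGF6 and MLL2 (TKO, 3 libraries) with wild-type full-grown oocytes (WT, 3 libraries). Genes were taken into it when their mean level reached 1 RPKM (reads per length of transcript, scaled to the size of the library) in WT or in TKO, which left 12455 of the 35842 symbols in the table. A total of 1016 of them reached that level in TKO but not in WT, and 623 in WT but not in TKO. The labels give the TKO genotype as Pcgf1/6 & Mll2 triple knockout and the stage of every oocyte library as full grown. The tissue is ovary, except that 1 PRC1-CD library is labelled embryo. The same table holds 3 libraries of the Pcgf1/6 double knockout (DKO), which differs from TKO by keeping Mll2. Outside that table are 2 libraries of oocytes with catalytic-dead PRC1 (PRC1-CD) beside 2 of their own wild type (PRC1-WT), and 10 morula libraries each of WT, of embryos from mothers with the double knockout (matDKO) and of embryos from mothers with the triple knockout (matTKO), of 43 libraries in all. Strain, age, how the genes were deleted and the number of oocytes in each WT, DKO and TKO library are not given in the sources used here. Each PRC1-CD or PRC1-WT library was made from 10 pooled oocytes whose zona had been removed. Nothing in the labels says that replicates came from separate animals, so the p-values measure only how far these samples spread, and that spread may be technical.

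Polycomb repressive complex 1 (PRC1) attaches ubiquitin to histone H2A, and its variant forms are built around PCGF proteins, among them PCGF1 and PCGF6. That mark recruits PRC2, which methylates histone H3 at lysine 27, and both marks keep developmental genes silent. MLL2, the product of Kmt2b, works in the other direction: it methylates H3 at lysine 4, a mark of promoters, and is the main enzyme of that mark in growing oocytes. A full-grown oocyte has stopped most transcription, so its RNA is the store laid down during growth, and this store supports the embryo until its own genes start.

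The deleted genes were low in the TKO libraries. Pcgf1 stood at 1094, 1153 and 1077 RPKM in WT and at 12.3, 13.7 and 10.7 in TKO, and DKO averaged 12.3 ± 1.47 (SD, n = 3). Pcgf6 stood at 148, 159 and 155 RPKM in WT and at 61.9, 81.6 and 73.2 in TKO, so transcripts of this gene remained, and DKO averaged 57.1 ± 2.77. Kmt2b stood at 4.43, 5.16 and 4.96 RPKM in WT and at 1.31, 1.07 and 1.04 in TKO, whereas DKO averaged 3.9 ± 0.315, so the 3 TKO libraries stood below the others for the gene that separates the genotypes. The labelled cell type was checked against its markers. All 15 oocyte markers were present, with summed levels of 28544 to 30596 RPKM in WT and 25192 to 28834 in TKO. Markers of granulosa and cumulus cells summed to 32.2 to 36.4 RPKM in WT and 36.9 to 41.3 in TKO, and markers of stroma, vessels and blood to 10.5 to 12.7 and 12.9 to 18.3. The granulosa genes Amh and Foxl2 stayed near 0, but other members moved in both directions. Cyp19a1, the largest part of the granulosa sum, went from 25.6, 22.1 and 22.3 RPKM in WT to 16.5, 16.8 and 15.3 in TKO. Nr5a2 went from 5.18, 5.49 and 5.23 to 10.4, 9.41 and 9.57, and Fshr from 0.61, 0.35 and 0.47 to 4.86, 7.18 and 7.18. Of the 6 granulosa markers tested, 3 were called higher and 1 lower. In such bulk samples, fewer cells of a type and less RNA per cell cannot be told apart. Between 11380 and 11980 genes per library had at least 1 RPKM, and the depth of the libraries is unknown.

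TKO oocytes differed from WT in many genes. With limma on log2(RPKM + 1) and Benjamini-Hochberg adjustment, 3979 genes were higher in TKO (31.9% of those tested) and 2578 were lower (20.7%). Most changes were small: 718 genes were higher by at least 2-fold (5.76%) and 550 lower (4.42%), and at least 8-fold was reached by 21 and 26. The split between directions depended on the scaling. As deposited, 60.7% of the calls were higher and the median gene moved by 0.096 on the log2 scale, whereas quantile normalization gave 3296 higher and 3074 lower (51.7% higher, median 0.017) and median-ratio scaling 3163 and 3276 (49.1%, median -0.001). Without any model, 4572 genes had every TKO library above every WT library and 2979 had every one below. Replicates were close in both groups: among genes of at least 10 RPKM the median SD was 4.86% of the mean in WT and 9.57% in TKO.

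The balance of rises and falls shifted with the level in WT. Of the 5936 genes between 1 and 10 RPKM in WT, 1666 were higher and 1138 lower in TKO, and of the 4258 between 10 and 100 RPKM 1258 and 1057. In both of these classes the direction depended on the scaling: quantile normalization gave 1315 higher and 1400 lower in the first and 1064 and 1234 in the next, and median-ratio scaling 1349 and 1361, and 918 and 1396. From 100 to 1000 RPKM the counts were 321 and 341 of 1160 genes. Among the 85 genes of 1000 RPKM or more, 13 were higher (15.3%) and 42 lower (49.4%), and falls also outnumbered rises there under quantile normalization (20 higher, 36 lower) and median-ratio scaling (6 and 51). Genes under 1 RPKM in WT were tested only because their TKO mean reached 1, so their rises are set by that filter. RPKM is a share of a library, so the total RNA per oocyte is not measured here.

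**Figure D1:**
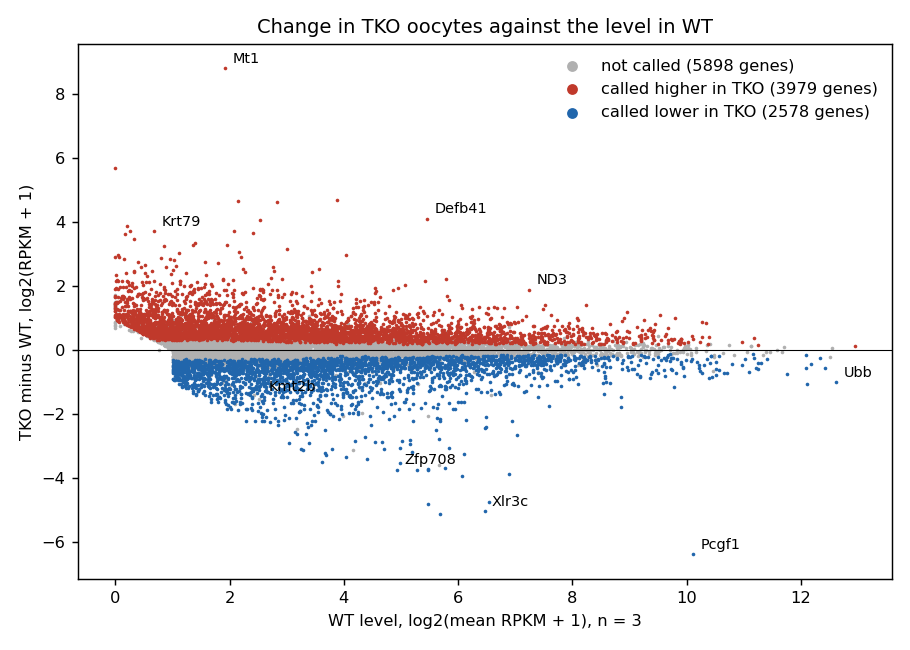
Log2 change from WT to TKO of each of the 12455 genes tested (vertical axis) against the mean WT level in RPKM (horizontal axis), with genes called higher or lower coloured. Calls lie on both sides over most of the range, and among the 85 genes of 1000 RPKM or more 42 are lower and 13 higher.

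Several of the most abundant transcripts of the oocyte fell. Ubb, which encodes polyubiquitin, stood at 6512, 6159 and 6168 RPKM in WT and at 2975, 3237 and 3145 in TKO, the largest fall in RPKM of the genes named by the rule (log2 change -1.01 ± 0.05, adjusted p = 4.06e-07). Every TKO library was at about the same level, below every WT library. Ldhb, a lactate dehydrogenase subunit, stood at 5777, 5106 and 5627 RPKM in WT and at 3430.3, 4479 and 3246 in TKO (log2 change -0.58 ± 0.12, adjusted p = 0.00251), a fall that did not pass the test under quantile normalization (-0.07, adjusted p = 0.541). Oosp3, an oocyte-secreted protein gene, stood at 2527, 2240.1 and 2506 RPKM in WT and at 1471, 1552 and 1831 in TKO (log2 change -0.59 ± 0.09, adjusted p = 0.000411). Btg4, whose product brings the deadenylase to maternal mRNA at meiotic maturation, stood at 2656, 2384 and 2522 RPKM in WT and at 1796, 1887 and 1990.2 in TKO (log2 change -0.41 ± 0.07, adjusted p = 0.000537), and DKO averaged 2693 ± 166. In each of these 4 genes the TKO libraries lay below the WT ones without overlap. Skp1a, a part of the SCF ubiquitin ligase, stood at 2334, 2073 and 2144 RPKM in WT and at 1240.5, 1473 and 1374 in TKO (log2 change -0.68 ± 0.09, adjusted p = 0.000131), and the oocyte F-box gene Fbxw24, which has close paralogs that may share reads, fell by 0.74 ± 0.15 on the log2 scale. Of the 15 oocyte markers 4 fell as deposited (26.7%, near the 20.7% over all genes) and 0 rose (beside 31.9% over all genes). The 4 were Btg4, Bmp15, H1foo and Oosp1. The call of Bmp15 was lost without WT library 1 (adjusted p = 0.114) or 3 (0.0547) or TKO library 1 (0.0737) or 3 (0.0819). That of Oosp1 was lost without WT library 1 (adjusted p = 0.112) or 3 (0.113) or TKO library 1 (0.0537) or 2 (0.0688). The direction of the list depended on the scaling: 3 members were higher and 2 lower under quantile normalization, where H1foo and Oosp1 changed sign, and 0 and 8 under median-ratio scaling.

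On the X chromosome the largest falls stood out in number: 12 of the 26 genes that fell at least 8-fold are X-linked. Of 402 X-linked genes tested, 104 were higher (25.9%) and 118 lower (29.4%), and 47 fell by at least 2-fold (11.7%, against 4.42% of all genes), with 28 higher by that much (6.97%). The Xlr genes, which encode germ-cell and lymphocyte proteins related to the synaptonemal complex protein SYCP3, held 7 of the 12. Xlr3c (chromosome X, 73254538 to 73265576, GRCm38) stood at 104, 75.1 and 82.5 RPKM in WT and at 1.67, 1.23 and 2.13 in TKO, with a DKO mean of 80.6 ± 23.6 (log2 change -5.04 ± 0.20, adjusted p = 9.96e-08). Xlr4b (chromosome X, 73214321 to 73222453) stood at 99.8, 85.2 and 90.6 RPKM in WT and at 2.6, 2.89 and 1.8 in TKO, with a DKO mean of 79.8 ± 7.85 (log2 change -4.77 ± 0.13, adjusted p = 1.08e-08). Both were between 1.23 and 2.89 RPKM in every TKO library and far higher in every WT library. Xlr5c, Xlr4a, Xlr4c, Xlr3b and Xlr5b fell by between 3.50 and 4.83 on the log2 scale, and these near-identical copies may exchange reads, so the share of each is uncertain. DKO means lay nearer to WT for Xlr4c (104 ± 7.13 RPKM, WT mean 118) than for Xlr5c (14 ± 9.27, WT mean 43.3) or Xlr4a (32 ± 4.2, WT mean 66).

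The other X-linked genes of this size of fall are unrelated to the Xlr family. Fmr1nb (chromosome X, 68761839 to 68804561), a germline gene beside Fmr1, stood at 34.9, 36.5 and 42.4 RPKM in WT and at 1.49, 2.53 and 1.74 in TKO, with a DKO mean of 48 ± 2.21 (log2 change -3.75 ± 0.13, adjusted p = 5.42e-08). Lage3, a subunit of the KEOPS complex that modifies transfer RNA, stood at 47.7, 38.8 and 43.7 RPKM in WT and at 2.65, 2.3 and 1.99 in TKO, with a DKO mean of 37 ± 2.64 (log2 change -3.74 ± 0.11, adjusted p = 1.45e-08). Hnrnph2, a splicing regulator, stood at 13.6, 15.9 and 16.5 RPKM in WT and at 1.99, 0.07 and 0.24 in TKO, with a DKO mean of 16.6 ± 0.816 (log2 change -3.36 ± 0.31, adjusted p = 2e-05). In these 3 genes every TKO library was below every WT library, and the DKO mean was close to the WT values. Lack of overlap between WT and TKO was a condition for naming genes by the largest changes. Apool, a protein of the mitochondrial inner membrane that helps to shape cristae, stood at 37.7, 36.8 and 32.3 RPKM in WT and at 2.84, 2.65 and 3.55 in TKO, with a DKO mean of 39.1 ± 1.22 (log2 change -3.19 ± 0.10, adjusted p = 3.07e-08). Pnma5, of a family derived from retrotransposons, stood at 12.8, 11 and 11.9 RPKM in WT and at 0.21, 0.45 and 0.33 in TKO, with a lower DKO mean of 5 ± 0.673 (log2 change -3.28 ± 0.12, adjusted p = 8.46e-08). For Apool the DKO mean was close to WT, and for Pnma5 it lay between WT and TKO. Tested directly between the knockouts, the TKO minus DKO difference was -4.08 ± 0.13 for Fmr1nb (adjusted p = 2.78e-08), -3.52 ± 0.11 for Lage3 (adjusted p = 2.32e-08) and -4.91 ± 0.20 for Xlr3c (adjusted p = 1.58e-07) on the log2 scale. The X-linked peroxiredoxin gene Prdx4, which folds proteins in the endoplasmic reticulum, stood at 5.36, 3.99 and 3.95 RPKM in WT and at 0.05, 0.23 and 0.2 in TKO, and DKO averaged 7.67 ± 0.795.

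**Figure D2:**
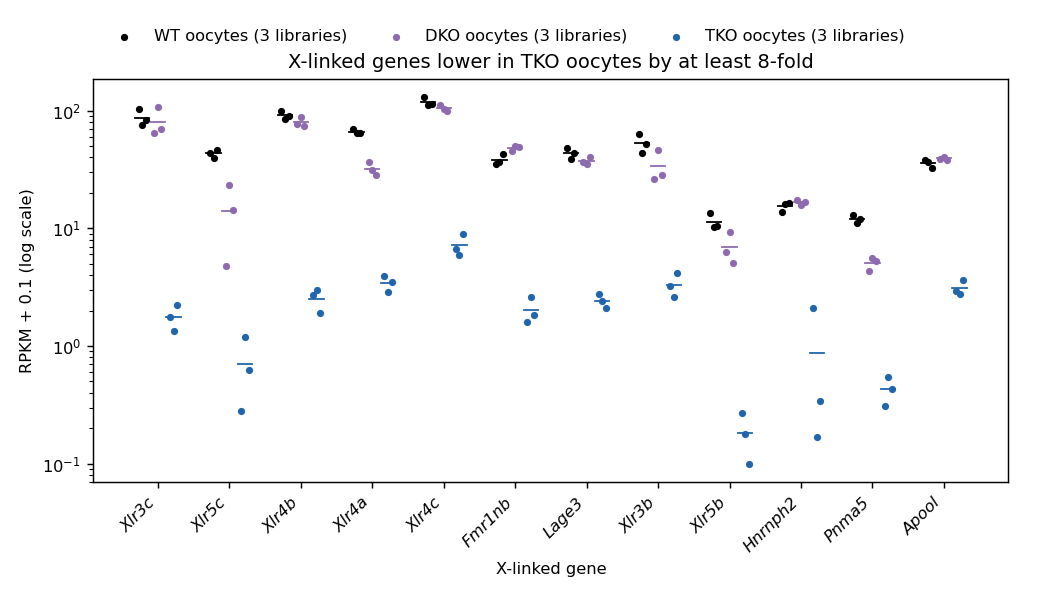
RPKM in each WT, DKO and TKO library (log axis) of the 12 X-linked genes that fell by at least 8-fold from WT to TKO. Each point is a library and the 3 TKO points of every gene lie below its WT points.

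The X-linked falls were set beside 2 tables that share no library with the TKO comparison. In PRC1-CD oocytes, whose label names no deletion of Mll2, 2309 of 13376 genes were higher than in PRC1-WT (17.3%) and 750 lower (5.61%). There 46 of the 47 X-linked genes that fell by at least 2-fold in TKO were tested, 9 of them were higher and 3 lower, and their median change was 0.17. Xlr3c was higher there by 2.16 ± 0.18 (adjusted p = 0.000378). In matTKO morulae 24 of 12823 genes were higher than in WT morulae (0.187%) and 55 lower (0.429%). Of the 47, 34 were tested in morulae, the change from WT was below 0 in 34, with a median of -0.94 and a range from -3.25 to -0.05, and 6 passed the test. The rest of the X chromosome was lower too: of 220 other X-linked genes 192 were below 0, with a median of -0.44, and 18 were lower and 0 higher by the test, against a median of -0.07 over 8675 autosomal genes. The sex of the morulae is not given, and its part in these values was not tested. Fmr1nb ranged from 211 to 521 TPM with a median of 473 in WT morulae and from 0.95 to 321 TPM with a median of 111 in matTKO morulae (log2 change -2.89 ± 0.54, n = 10 each, limma adjusted p = 0.0061). Xlr3b ranged from 7.11 to 77.5 TPM with a median of 21.2 in WT and from 0 to 12.7 TPM with a median of 0.42 in matTKO (log2 change -3.25 ± 0.53, limma adjusted p = 0.00162). Both groups of embryos spread widely, and for Fmr1nb the highest matTKO embryos overlapped the lowest WT embryo.

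Promoters were compared by their content of CpG, a C followed by a G on the same strand. DNA is methylated at CpG, and CpG islands are stretches dense in it. RefSeq windows of GRCm38.p6, from 250 bases before to 50 after the start, were available for 9655 of the 12455 genes tested. Stretches of the 250 bases before the start are shown for 4 genes that fell and 2 that rose, to make the contrast visible. The start is that of the window RefSeq lists for the gene, which for Xlr3c and Xlr4b is not the outer end of the gene span given above, so that the stretch overlaps that span. They are printed 5′ to 3′ on the gene's strand with each CG in capitals. They are Xlr3c (chrX:73265391-73265640, minus strand, 6 CpG), Xlr4b (chrX:73214083-73214332, plus, 8), Fmr1nb (chrX:68761589-68761838, plus, 7), the zinc finger gene Zfp708 (chr13:67097977-67098226, minus, 7), the homeobox gene Hoxd1 (chr2:74762730-74762979, plus, 24) and the transcription factor gene Klf4 (chr4:55532476-55532725, minus, 32).
Xlr3c: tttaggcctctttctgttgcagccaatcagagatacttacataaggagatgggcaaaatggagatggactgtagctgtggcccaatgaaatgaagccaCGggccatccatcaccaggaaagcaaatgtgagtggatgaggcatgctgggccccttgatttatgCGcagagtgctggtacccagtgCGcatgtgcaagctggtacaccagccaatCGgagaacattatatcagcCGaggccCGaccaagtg
Xlr4b: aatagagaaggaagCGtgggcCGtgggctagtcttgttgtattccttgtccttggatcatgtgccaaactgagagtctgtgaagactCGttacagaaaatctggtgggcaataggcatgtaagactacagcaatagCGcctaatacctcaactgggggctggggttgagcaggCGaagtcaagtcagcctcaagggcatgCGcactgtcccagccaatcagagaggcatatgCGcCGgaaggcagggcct
Fmr1nb: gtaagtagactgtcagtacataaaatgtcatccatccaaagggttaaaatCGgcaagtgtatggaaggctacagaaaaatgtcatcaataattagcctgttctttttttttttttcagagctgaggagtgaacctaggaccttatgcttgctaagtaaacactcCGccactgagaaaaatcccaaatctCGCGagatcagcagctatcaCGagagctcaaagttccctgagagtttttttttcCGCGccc
Zfp708: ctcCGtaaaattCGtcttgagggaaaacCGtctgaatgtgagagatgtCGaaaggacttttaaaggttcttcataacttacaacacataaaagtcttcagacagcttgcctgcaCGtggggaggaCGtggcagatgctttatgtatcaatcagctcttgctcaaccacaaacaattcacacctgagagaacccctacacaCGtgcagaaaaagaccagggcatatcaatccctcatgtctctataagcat
Hoxd1: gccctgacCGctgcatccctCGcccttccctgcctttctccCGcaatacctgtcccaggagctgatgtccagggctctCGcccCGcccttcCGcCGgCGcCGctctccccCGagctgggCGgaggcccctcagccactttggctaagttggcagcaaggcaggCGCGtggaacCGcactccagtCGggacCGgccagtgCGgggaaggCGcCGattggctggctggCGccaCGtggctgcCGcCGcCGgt
Klf4: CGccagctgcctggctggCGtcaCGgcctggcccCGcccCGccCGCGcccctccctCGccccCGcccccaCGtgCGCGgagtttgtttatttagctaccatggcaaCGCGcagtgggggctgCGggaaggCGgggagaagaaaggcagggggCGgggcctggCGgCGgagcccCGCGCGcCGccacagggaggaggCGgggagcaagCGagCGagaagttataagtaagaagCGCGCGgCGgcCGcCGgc

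The pairs of capitals are scattered in the upper 4 stretches and dense in those of Hoxd1 and Klf4, and the same held across the table for falls. The median window held 19 CpG over all genes, 21 for genes higher in TKO, 14 for genes lower and 8 for genes lower by at least 2-fold. At most 5 CpG were found in 17.3% of all windows and in 37.2% of those of genes lower by at least 2-fold. Low CpG content also went with large rises, though less: the median was 17 and the share with at most 5 CpG 24.6% for genes higher by at least 2-fold. Across the 4 classes of 0 to 5, 6 to 14, 15 to 24 and 25 or more CpG, the share of genes lower in TKO was 30.3%, 27.3%, 18.2% and 13.9%, and the share lower by at least 2-fold 9.38%, 7.76%, 2.81% and 1.22%. The share higher was 25.1%, 28.4%, 33.5% and 36.8% in the same order. Levels in WT differed between the classes, with medians of 4.26, 6.67, 11.1 and 9.35 RPKM. Among genes of at least 10 RPKM in WT, where class medians lay between 33.0 and 37.7 RPKM, the share lower was 42.1%, 33.8%, 23.5% and 19%. The median change in DKO was -0.054, 0.011, 0.036 and 0.033 for the 4 classes, and in TKO -0.034, 0.031, 0.109 and 0.158. These are counts over genes, which are not replicates, and no test was made.

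**Figure D3:**
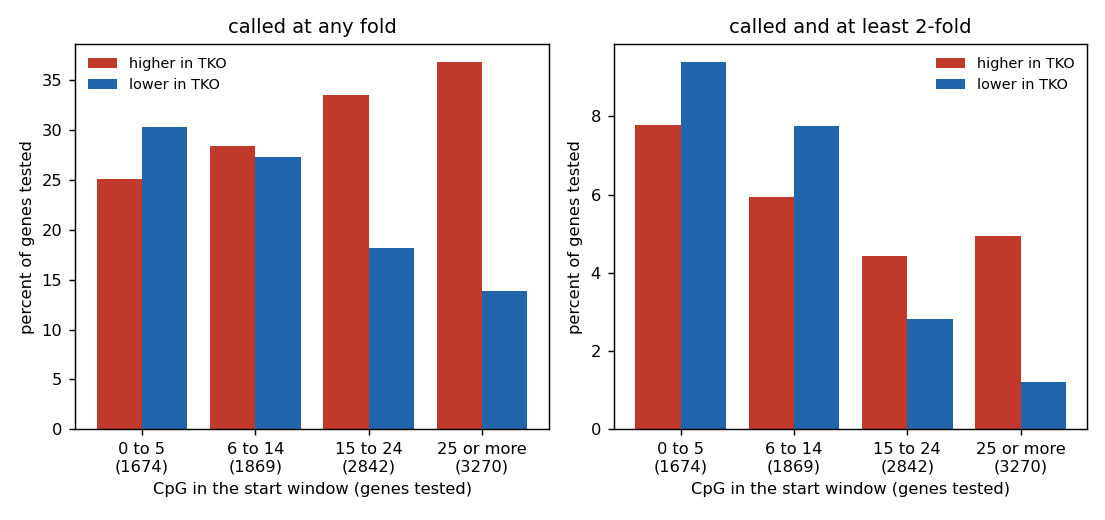
Percent of genes called higher and lower in TKO (vertical axis) in 4 classes of CpG count in the 300-base promoter window (horizontal axis). The share lower runs from 30.3% in the class of 0 to 5 CpG to 13.9% in that of 25 or more, and the share higher from 25.1% to 36.8%.

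Short motifs were searched on both strands of the 300-base windows as exact letters. The E-box CACGTG was in 9.99% of all windows, 11.4% of those of genes higher and 8.79% of genes lower. GCGGGAA, an E2F site, was in 8.07%, 8.18% and 6.98%, and in 3.55% of genes lower by at least 2-fold. TATAAA was in 8.39%, 8.24% and 9.3%, and the metal response core, TGCACNC or TGCGCNC, in 34.6%, 37.6% and 31.1%. GCGGGAA holds a CG itself. A match to these letters is a description of the window and not evidence of binding.

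Zinc finger genes were the list with the most falls by number, being also the longest of the lists tested. Of 374 genes named Zfp, 228 were tested, and 110 were lower in TKO (48.2%, beside 20.7% over all genes and 66.7% of the Xlr list) and 37 higher, with 49 lower and 5 higher by at least 2-fold. The median of the list was -0.34 against 0.096 over all genes, and 0.05 in DKO and -0.06 in PRC1-CD. Many proteins of this kind carry a KRAB domain and silence retroelements through the co-repressor TRIM28. Zfp788 stood at 4.79, 5.15 and 4.75 RPKM in WT and at 0.16, 0.36 and 0.3 in TKO, with a DKO mean of 5.17 ± 0.221 (log2 change -2.21 ± 0.11, adjusted p = 3.46e-07). Zfp160 stood at 15.7, 15.1 and 17.3 RPKM in WT and at 3.03, 3.36 and 3.49 in TKO, with a DKO mean of 15.2 ± 0.627 (log2 change -1.99 ± 0.09, adjusted p = 2.8e-07). Zfp809, which silences retroviruses in mouse embryonic cells, stood at 2.81, 2.98 and 2.81 RPKM in WT and at 0.59, 0.34 and 0.59 in TKO, whereas DKO averaged 6.2 ± 1.43. The DKO means of these 3 genes were close to or above the WT values, and every TKO library was far below the lowest WT library. The gene of their partner moved the other way: Trim28 stood at 19.9, 24 and 22.1 RPKM in WT and at 52.4, 40.2 and 37.7 in TKO (log2 change 0.94 ± 0.14, adjusted p = 0.000401), with a DKO mean of 22.4 ± 3.53.

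Many falls of zinc finger genes lay side by side in the genome. With the 12148 tested genes that have a position set in order, 461 runs of at least 3 neighbours called the same way were found, 334 higher and 127 lower. The longest had 10 genes, and there were 5 of them. Of these, 4 were lower and lie in zinc finger clusters: chromosome 10 from 81704747 to 82623228, chromosome 13 from 61771580 to 62858400 and from 66996818 to 67609707, and chromosome 17 from 21008941 to 21845759 (GRCm38.p6). The second of the chromosome 13 runs holds Zfp708, Zfp759, Zfp458, Zfp595, Zfp874a, Zfp58, Zfp748 and Zfp729b, with changes from -3.75 to -0.68. The chromosome 17 run holds Zfp160, Zfp677, Zfp51, Zfp53, Zfp948, Zfp760, Zfp229 and Zfp820, from -2.86 to -0.63. Zfp820 stood at 24.8, 12.7 and 14.1 RPKM in WT and at 1.27, 2.64 and 0.7 in TKO (log2 change -2.86 ± 0.29, adjusted p = 3.9e-05), so the TKO libraries differed among themselves but did not reach the WT ones. The run of higher genes, on chromosome 7 from 18884690 to 19152734, reaches from Pglyrp1 to Snrpd2 and contains Nanos2, Foxa3 and Dmpk, with changes from 0.35 to 1.11. Neighbouring genes are not independent, and reads of near-identical zinc finger genes may be split between copies.

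Runs in which each neighbour changed by at least 2-fold, a limit chosen after the values were seen, numbered 20, of which 7 were higher and 13 lower. A group of 3 imprinted neighbours on distal chromosome 7, 143458339 to 143503145, was higher: Cdkn1c, Slc22a18 and Phlda2 rose by 3.71 ± 0.13, 1.79 ± 0.17 and 2.96 ± 0.18. Slc22a18, a transporter gene, stood at 0.54, 0.55 and 0.23 RPKM in WT and at 5.33, 3.78 and 3.05 in TKO, with a DKO mean of 0.643 ± 0.144, so it was high in TKO and near the WT level in DKO. Phlda2, which limits placental growth, stood at 14.9, 19.9 and 11.4 RPKM in WT and at 105, 142 and 127 in TKO, with a DKO mean of 178 ± 25.9. The run of Atp5g3, Hoxd9, Hoxd8, the noncoding Haglr and Hoxd1, on chromosome 2 from 73908447 to 74765142, was higher by 1.10 to 2.97. In it Atp5g3 lies at the end away from Hoxd1. Only tested genes were set in order, so other genes may lie between neighbours. The HoxA run of Mira, Hoxa7 and Hoxa10 was higher by 1.02 to 1.52. On the X chromosome, Xlr5a, Xlr5b, Xlr3b and Xlr4b, and then Xlr4c, Xlr3c and Xlr5c, formed 2 lower runs.

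Transcripts of the mitochondrial genome were higher in TKO as a whole. All 13 protein-coding transcripts were higher, 7 of them by at least 2-fold, with a median change of 1.08, and 13 were called higher under each of the 14 alternative settings (medians 0.90 to 1.21). Their share of the library was 0.897%, 0.936% and 1.07% in WT and 1.72%, 2.38% and 1.58% in TKO. The second TKO library stood highest, and without it the median was 0.90. ND3, a subunit of complex I, stood at 136, 173 and 141 RPKM in WT and at 533, 685 and 450.2 in TKO, with a DKO mean of 159.8 ± 16.5 (log2 change 1.87 ± 0.15, adjusted p = 8.23e-06). ND1, of the same complex, stood at 294, 309.8 and 295 RPKM in WT and at 681, 1231 and 584 in TKO (log2 change 1.39 ± 0.23, adjusted p = 0.00072), and COX3, of cytochrome c oxidase, stood at 1102, 1138 and 1464 RPKM in WT and at 2164, 2845 and 1796 in TKO (log2 change 0.86 ± 0.17, adjusted p = 0.00201). Every TKO library exceeded every WT library in each of these. In DKO the list's median was -0.22 and in PRC1-CD -0.06, where 0 of 13 passed the test, and in matTKO morulae 0.40, again with 0 of 13. TKO against DKO, where 3434 genes were higher (27.6%) and 2552 lower (20.5%), had 13 of 13 higher. The number of oocytes per library is not given here, and its part in this difference was not tested. Nuclear genes of the respiratory chain were not taken as a list, and those named here moved in both directions. Sdhc, a membrane subunit of complex II, stood at 106, 105 and 106 RPKM in WT and at 43.9, 37.2 and 37.8 in TKO, with a DKO mean of 107 ± 4.25 (log2 change -1.39 ± 0.07, adjusted p = 6.78e-07). Atp5g3, a subunit of ATP synthase, stood at 93.1, 93.9 and 84.7 RPKM in WT and at 163, 251 and 192 in TKO, with a DKO mean of 179 ± 24.5 (log2 change 1.13 ± 0.14, adjusted p = 0.000154).

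Genes of the cytosolic ribosome showed a smaller shift in the same direction. Of 84 ribosomal protein genes tested 63 were higher and 6 lower, with a median of 0.48, against medians of 0.06 in DKO and 0.12 in PRC1-CD, where 2 of 84 were higher and 1 lower. Between 60 and 66 were higher under the alternative settings. Rps16 stood at 265, 276 and 264 RPKM in WT and at 539, 526 and 546 in TKO (log2 change 0.997 ± 0.05, adjusted p = 4.74e-07), with the 3 libraries of a group close together. Rpl13a stood at 69.2, 79.1 and 74.9 RPKM in WT and at 202, 166 and 178 in TKO, with a DKO mean of 68 ± 7.96 (log2 change 1.28 ± 0.10, adjusted p = 8.71e-06). The largest change of a ribosomal gene was a fall, that of Rpl39l, a paralog of Rpl39 known from germ cells, which stood at 353, 378 and 392.3 RPKM in WT and at 127, 164 and 136 in TKO (log2 change -1.40 ± 0.09, adjusted p = 2.41e-06). Proteasome subunits had no common direction, with 6 higher and 9 lower of 37 and a median of 0.06 (-0.05 under median-ratio scaling). Glycolysis enzymes had 7 higher (35%) and 2 lower (10%) of 20, beside 31.9% and 20.7% over all genes.

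**Figure D4:**
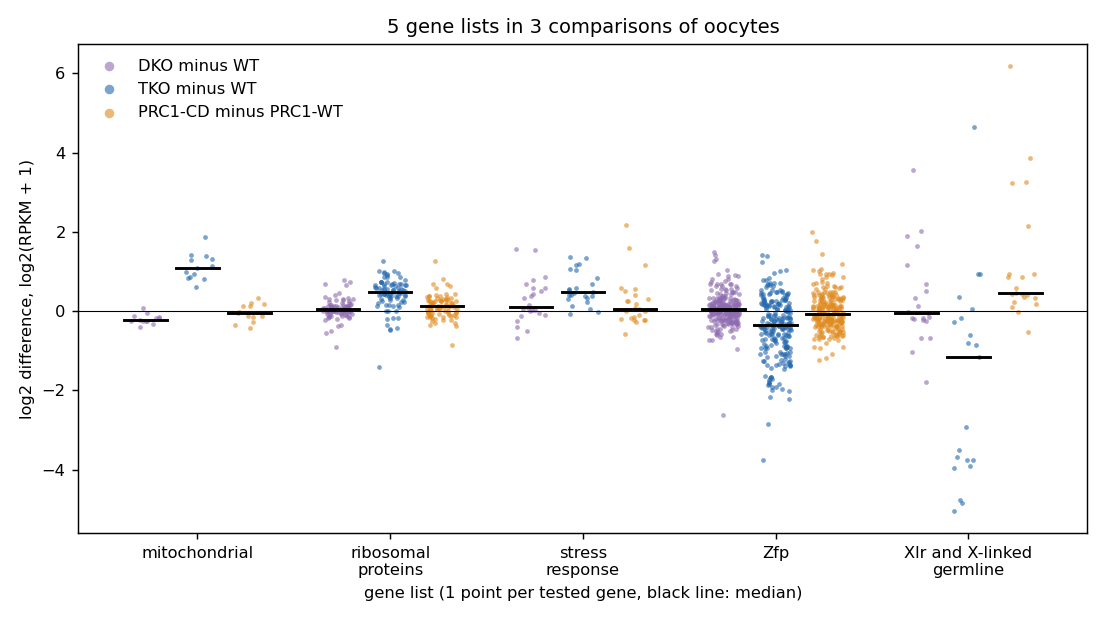
Log2 change (vertical axis) from WT to DKO, from WT to TKO and from PRC1-WT to PRC1-CD. The lists (horizontal axis) are mitochondrial transcripts, ribosomal proteins, the integrated stress response, Zfp, and Xlr with X-linked germline genes. Each point is a tested gene and each black line a median. The median of the mitochondrial list is 1.08 in TKO, -0.22 in DKO and -0.06 in PRC1-CD, and that of the ribosomal list 0.48, 0.06 and 0.12.

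Genes of the integrated stress response, by which cells slow translation and induce rescue genes through ATF4, were mostly higher in TKO. Of 24 of its genes tested 19 were higher (79.2%) and 0 lower, beside 31.9% and 20.7% over all genes. Of the 24, 3 were tested only through TKO, and with a WT mean of at least 1 RPKM 16 were higher. Between 15 and 19 were higher under the alternative settings. The median was 0.48, beside 0.096 over all genes, and 0.12 in DKO and 0.06 in PRC1-CD. Ddit3, which encodes the factor CHOP, stood at 128, 131 and 128 RPKM in WT and at 293, 389 and 312 in TKO, with a DKO mean of 121 ± 9.32 (log2 change 1.34 ± 0.10, adjusted p = 5.37e-06). Ddit4, an inhibitor of mTOR signalling, stood at 3.41, 3.7 and 3.33 RPKM in WT and at 14, 7.88 and 10.8 in TKO, with a DKO mean of 4.07 ± 0.918 (log2 change 1.38 ± 0.19, adjusted p = 0.000266). Hsp90b1, a chaperone of the endoplasmic reticulum, stood at 114, 101 and 107 RPKM in WT and at 189, 292 and 195 in TKO, with a DKO mean of 76.6 ± 13.6 (log2 change 1.03 ± 0.17, adjusted p = 0.000666). In all 3 the WT libraries and the DKO mean lay below the lowest TKO library. TKO against DKO gave 1.44 ± 0.10 for Ddit3 (adjusted p = 5.41e-06) and 1.53 ± 0.17 for Hsp90b1 (adjusted p = 8.74e-05). Slc7a5, an amino acid transporter, and Cebpb, a transcription factor, rose by 1.20 ± 0.19 and 1.16 ± 0.13.

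Genes of glutathione metabolism and oxidative defence changed in both directions, with 14 higher (40%) and 11 lower (31.4%) of 35 tested. Over all genes the shares were 31.9% and 20.7%. At least 2-fold was reached by 8 of the rises and 7 of the falls. Under quantile normalization the counts were 13 and 13 and under median-ratio scaling 12 and 14. Of the 35, 3 were tested only through TKO, and with a WT mean of at least 1 RPKM 11 were higher and 11 lower. Gstk1, a mitochondrial glutathione transferase, stood at 23.9, 21 and 19.19 RPKM in WT and at 2.44, 5.31 and 2.71 in TKO, with a DKO mean of 20.5 ± 3.5 (log2 change -2.37 ± 0.21, adjusted p = 1.79e-05). Gpx1, the main glutathione peroxidase, stood at 23.4, 21.2 and 18.7 RPKM in WT and at 3.37, 6.76 and 3.12 in TKO, with a DKO mean of 24.8 ± 4.36 (log2 change -2.08 ± 0.22, adjusted p = 5.06e-05). Both DKO means were close to the WT values, and every TKO library was far below them. Gstm5, abundant in the oocyte, stood at 474, 442 and 467 RPKM in WT and at 148, 117 and 137 in TKO, with an intermediate DKO mean of 306 ± 85.8 (log2 change -1.78 ± 0.18, adjusted p = 3.44e-05). Among the rises, Gsto1 stood at 0.8, 1.26 and 1.2 RPKM in WT and at 7.28, 18.6 and 11.9 in TKO, with a DKO mean of 21.5 ± 2.93, and Prdx6 stood at 5.71, 6.18 and 5.03 RPKM in WT and at 25.5, 36.2 and 29.3 in TKO, with a DKO mean of 38.9 ± 4.89. For both the DKO mean exceeded each TKO value. Gclc, the rate-limiting enzyme of glutathione synthesis, stood at 1.79, 1.21 and 1.4 RPKM in WT and at 9.35, 8.72 and 8.07 in TKO, with a DKO mean of 4.58 ± 0.691 (log2 change 1.98 ± 0.13, adjusted p = 2.41e-06), so that here the DKO mean lay below each TKO library.

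Genes of meiotic chromosomes had list medians of opposite sign in the 2 knockouts, whose comparisons share the WT libraries. Of 42 tested, 9 were higher (21.4%) and 15 lower (35.7%) in TKO, beside 31.9% and 20.7% over all genes. Of the 42, 2 were tested only through TKO, and with a WT mean of at least 1 RPKM 7 were higher and 15 lower. The median was -0.15 in TKO, whereas it was 0.20 in DKO and 0.54 in PRC1-CD, where 19 were higher and 0 lower. TKO against DKO had 2 higher and 25 lower. Ccnb1ip1, also known as Hei10, which marks crossover sites, stood at 4.31, 5.78 and 4.2 RPKM in WT and at 0.63, 0.69 and 0.64 in TKO, with a DKO mean of 41.8 ± 5.37 (log2 change -1.79 ± 0.13, adjusted p = 4.94e-06). DKO was thus far above WT and every TKO library below it, and the TKO minus DKO difference was -4.69 ± 0.13 (adjusted p = 1.56e-08). Tex15, a germ-cell gene needed for meiotic recombination in males, stood at 61.4, 59.8 and 57.2 RPKM in WT and at 16.7, 18.4 and 12.9 in TKO, with a DKO mean of 81.1 ± 5.22 (log2 change -1.84 ± 0.11, adjusted p = 1.75e-06). Rec114, needed to form meiotic DNA breaks, stood at 27, 29.7 and 25.2 RPKM in WT and at 9.38, 9.06 and 9.76 in TKO, with a DKO mean of 36.5 ± 3.46 (log2 change -1.44 ± 0.09, adjusted p = 2.09e-06). Meikin, which protects centromeric cohesion in the first division, stood at 30.8, 27.4 and 24.9 RPKM in WT and at 6.76, 14.2 and 8.37 in TKO, with a DKO mean of 23 ± 0.472 (log2 change -1.47 ± 0.20, adjusted p = 0.000242). In all 3 the TKO libraries lay below the WT libraries without overlap. Among the rises, Rbm46, a germ-cell RNA-binding gene, stood at 0.03, 0.12 and 0.41 RPKM in WT and at 5.31, 3.94 and 2.58 in TKO, with a DKO mean of 29 ± 1.65, and Meioc, needed to stay in meiotic prophase, stood at 0.41, 0.29 and 0.07 RPKM in WT and at 3.86, 8.14 and 5.98 in TKO, with a DKO mean of 9.17 ± 1.08. For both, TKO was above WT and its mean below that of DKO. Both were tested only through their TKO level, so their rises are set by the filter. In the list of piRNA and germ granule genes 10 of 28 were higher (35.7%, near the share over all genes) and 9 lower (32.1%). That balance turned to 8 and 12 under quantile normalization and 7 and 12 under median-ratio scaling. In the list of zona and oocyte growth factor genes 7 were higher (29.2%) and 6 lower (25%) of 24, near the shares over all genes.

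Genes of the maternal store fell more often than they rose. Of 52 maternal-effect and subcortical complex genes 24 were lower and 10 higher, with a median of -0.17 against -0.10 in DKO and -0.10 in PRC1-CD. The split was 21 lower and 13 higher under quantile normalization and 28 and 6 under median-ratio scaling. Nlrp9b, of the oocyte NLR family, stood at 200.1, 169.7 and 188 RPKM in WT and at 95.9, 85.1 and 78 in TKO, with a DKO mean of 177 ± 23.8 (log2 change -1.10 ± 0.11, adjusted p = 3.17e-05), and its paralog Nlrp9c fell by 1.03 ± 0.12. Oog3, an oocyte-specific gene, stood at 1516, 1429.9 and 1409.7 RPKM in WT and at 836, 751 and 939 in TKO, with a DKO mean of 1149.9 ± 78.6 (log2 change -0.79 ± 0.08, adjusted p = 4.39e-05). In both, all TKO libraries were below all WT libraries. Among 14 genes of the 2-cell stage 6 were lower (42.9%) and 1 higher (7.14%), beside the same shares over all genes. Of these, Obox7, an oocyte homeobox gene, stood at 378, 339.5 and 399 RPKM in WT and at 211, 225 and 245 in TKO, with a DKO mean of 205 ± 28.5 (log2 change -0.71 ± 0.10, adjusted p = 0.000341). Single genes outside these lists fell further. Mad2l1bp, which silences the spindle checkpoint, stood at 31.2, 30.2 and 30.9 RPKM in WT and at 1.63, 1.62 and 1.91 in TKO, with a DKO mean of 52 ± 4.57 (log2 change -3.55 ± 0.09, adjusted p = 7.15e-09). Commd8 stood at 9, 9.39 and 7.86 RPKM in WT and at 0.09, 0.08 and 0.13 in TKO, with a DKO mean of 9.81 ± 1.29 (log2 change -3.14 ± 0.12, adjusted p = 8.46e-08). Ccdc172 stood at 42.6, 42.5 and 45.4 RPKM in WT and at 3.4, 1.43 and 2.5 in TKO, with a DKO mean of 42.6 ± 0.443 (log2 change -3.73 ± 0.17, adjusted p = 2.95e-07), and Bet1, a vesicle fusion protein of the Golgi, stood at 168, 160.2 and 176 RPKM in WT and at 56.9, 51.1 and 71.3 in TKO, with a DKO mean of 142 ± 16.7 (log2 change -1.49 ± 0.12, adjusted p = 9.62e-06). In these 4 autosomal genes every TKO library was below every WT library, with DKO means near or above WT except a slightly lower one for Bet1. Genes named for the largest changes were chosen among those without overlap, so this is in part set by the choice.

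Developmental regulators known as Polycomb targets were among the largest rises. Of 162 such regulators 30 passed the filter, 15 of them only through their TKO level, so that their rises are set in part by the filter, and 25 were higher and 3 lower. Rises of this kind were also seen outside the list. Klf4 (chromosome 4, 55527137 to 55532475), a transcription factor of epithelia and pluripotent cells, stood at 1.42, 1.6 and 1.84 RPKM in WT and at 30.5, 22.9 and 23.3 in TKO, with a DKO mean of 9 ± 0.809 (log2 change 3.33 ± 0.13, adjusted p = 9.66e-08). Hes1, an effector of Notch signalling, stood at 0.07, 0.27 and 0.03 RPKM in WT and at 9.41, 18.7 and 11.7 in TKO, with a DKO mean of 4.33 ± 0.94 (log2 change 3.62 ± 0.22, adjusted p = 1.75e-06). Within the list, Sox2, a factor of pluripotent and neural cells, stood at 0.09, 0.21 and 0.11 RPKM in WT and at 6.17, 4.6 and 4.31 in TKO, with a DKO mean of 1.2 ± 0.157. For these 3 genes the DKO mean lay between the WT and TKO values, and TKO against DKO gave 1.40 ± 0.13 for Klf4 (adjusted p = 2.87e-05) and 1.44 ± 0.14 for Sox2 (adjusted p = 3.68e-05). Fshr, the receptor for follicle-stimulating hormone and a granulosa marker, stood at 0.61, 0.35 and 0.47 RPKM in WT and at 4.86, 7.18 and 7.18 in TKO, with a DKO mean of 0.203 ± 0.127 (log2 change 2.31 ± 0.16, adjusted p = 3.1e-06). The summed granulosa markers are given above; of 29 markers 6 were tested, 3 higher and 1 lower, and of 19 markers of stroma, vessels and blood 3, with 1 higher. In PRC1-CD, Fshr was higher by 3.37 ± 0.23 (adjusted p = 0.000204).

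Of 18 trophectoderm and placental genes tested 12 were higher and 4 lower, with 5 tested only through TKO, beside 31.9% higher and 20.7% lower over all genes. Of 27 keratin and junction genes 11 were higher (40.7%) and 7 lower (25.9%), and among the members of that list with a WT mean of 1 RPKM or more 4 were higher and 7 lower, so most of this list's rises were in the 7 genes tested only through TKO. Krt79, a keratin gene, stood at 0.31, 0.9 and 0.59 RPKM in WT and at 30.5, 12.1 and 19.9 in TKO, whereas DKO averaged 0.227 ± 0.101 (log2 change 3.70 ± 0.27, adjusted p = 4.76e-06). TKO stood above DKO by 4.07 ± 0.27 (adjusted p = 4.15e-06); DKO was near the WT level of this gene. Krt8, the partner keratin of simple epithelia, stood at 0.53, 0.11 and 0.1 RPKM in WT and at 10.6, 18.7 and 9.84 in TKO, with a DKO mean of 8.3 ± 3.68. Tfap2a, a factor of surface ectoderm and trophoblast, stood at 0.75, 0.61 and 0.6 RPKM in WT and at 3.35, 2.46 and 3.36 in TKO, with a DKO mean of 0.97 ± 0.07 (log2 change 1.29 ± 0.12, adjusted p = 2.71e-05). Among secreted growth factors 12 were higher (50%) and 4 lower (16.7%) of 24. Of these 24, 7 were tested only through TKO, and with a WT mean of 1 RPKM or more 5 were higher and 4 lower. Pthlh, which encodes parathyroid hormone-like peptide, stood at 6.67, 5.1 and 5.55 RPKM in WT and at 49.99, 32.5 and 36.4 in TKO, with a DKO mean of 79.8 ± 11.1. Among chemokines and cytokines 10 were higher (58.8%) and 1 lower (5.88%) of 17. Of these 17, 3 were tested only through TKO, and with a WT mean of 1 RPKM or more 8 were higher and 1 lower. Among 13 metallothionein and zinc transport genes 5 were higher (38.5%, beside 31.9% over all genes) and 0 lower. These rises were led by Mt1, which stood at 2.83, 2.68 and 2.83 RPKM in WT and at 1353, 1938 and 1780 in TKO, with a DKO mean of 681 ± 38.2. Slc30a5, a zinc transporter of the Golgi, stood at 10.3, 13.1 and 11.2 RPKM in WT and at 21.5, 19.8 and 21.8 in TKO (log2 change 0.82 ± 0.10, adjusted p = 0.000114). Of 167 solute carrier genes 66 were higher (39.5%) and 30 lower (18%), a split of 51 and 37 under quantile normalization and 52 and 38 under median-ratio scaling. Of the 167, 20 were tested only through TKO, and with a WT mean of 1 RPKM or more 49 were higher and 30 lower.

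**Figure D5:**
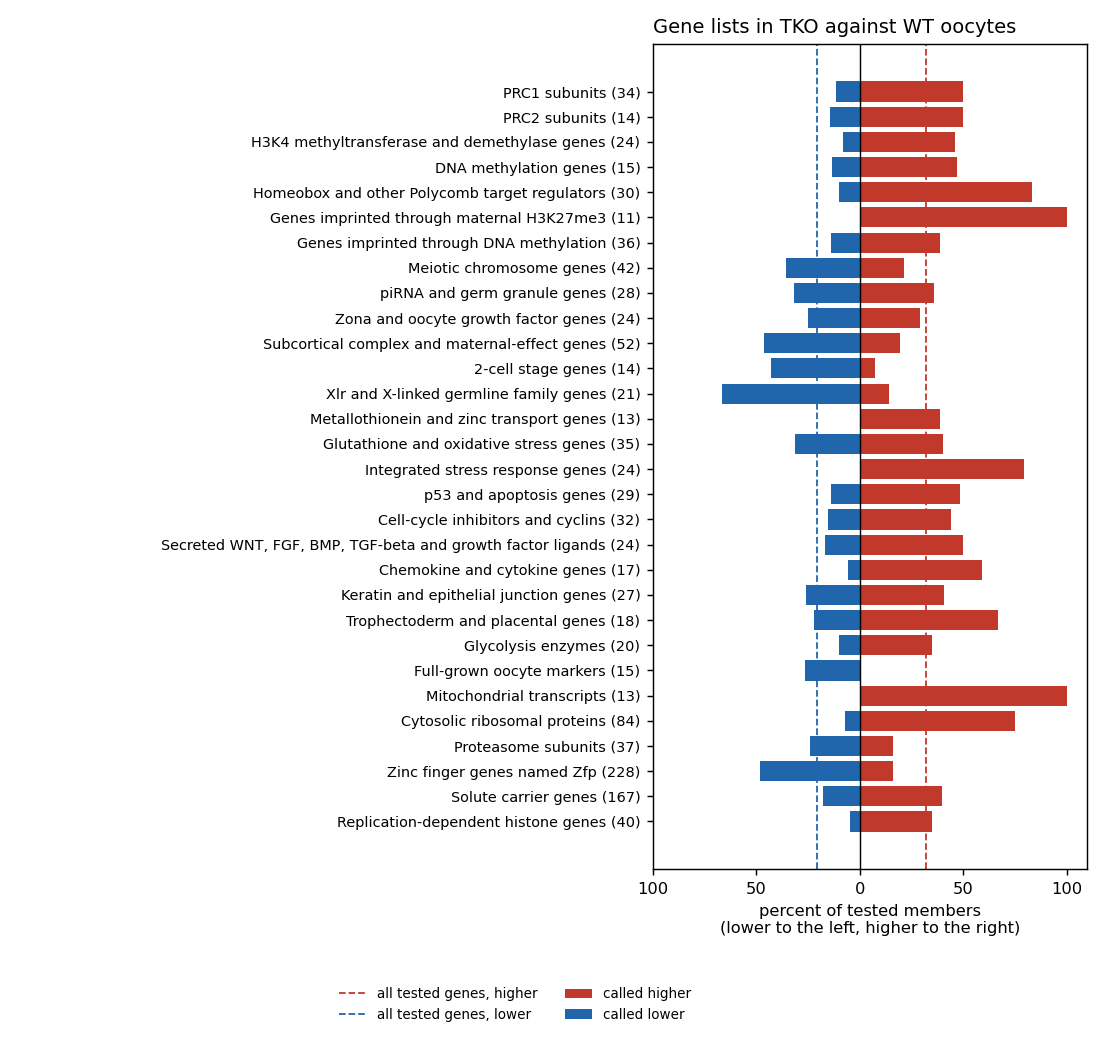
Percent of the tested members of each gene list (rows) that were called higher and lower in TKO, beside the shares over all 12455 genes tested, 31.9% higher and 20.7% lower. Mitochondrial transcripts, ribosomal proteins and the stress response lie on the higher side, and the Zfp and Xlr lists on the lower side.

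Imprinted genes passed the filter in part. Of 30 genes imprinted through maternal H3K27me3 11 passed, 9 of them only through TKO, so their rises were set by the filter, and 11 were higher. Of 36 tested genes imprinted through DNA methylation 14 were higher (38.9%) and 5 lower (13.9%), beside 31.9% and 20.7% over all genes. Of the 36, 7 were tested only through TKO, and with a WT mean of at least 1 RPKM 8 were higher and 5 lower. Quantile normalization gave 9 higher and 6 lower, and median-ratio scaling 12 and 7. Ins2, which encodes insulin, stood at 1.38, 1.06 and 1.08 RPKM in WT and at 12.6, 21.7 and 16.8 in TKO, with a DKO mean of 3.7 ± 0.384 (log2 change 3.02 ± 0.17, adjusted p = 9.69e-07), and Asb4 stood at 2.38, 1.88 and 2.04 RPKM in WT and at 8.15, 13.3 and 7.56 in TKO, with a DKO mean of 2.99 ± 1.38 (log2 change 1.75 ± 0.27, adjusted p = 0.000509). Both were higher in every TKO library. Of 40 replication-dependent histone genes 14 were higher (35%, near the 31.9% over all genes) and 2 lower, with 10 tested only through TKO. Their main transcripts lack poly(A) tails, so polyadenylated RNA sees only a part of them. Hist1h1e, a linker histone, stood at 1.19, 0.56 and 1.36 RPKM in WT and at 9.22, 18.4 and 12.4 in TKO, with a DKO mean of 5.82 ± 0.551 (log2 change 2.79 ± 0.23, adjusted p = 9.53e-06). Among 32 cell-cycle genes 14 were higher (43.8%) and 5 lower (15.6%), with a median of 0.13 against 0.096 over all genes. Ccne1, cyclin E, stood at 1.23, 2.67 and 1.25 RPKM in WT and at 8.85, 9.52 and 8.54 in TKO, with a DKO mean of 7.06 ± 0.402 (log2 change 1.92 ± 0.18, adjusted p = 2.06e-05). Among 29 p53 and apoptosis genes 14 were higher (48.3%) and 4 lower (13.8%), beside 31.9% and 20.7% over all genes. Of the 29, 9 were tested only through TKO, and with a WT mean of at least 1 RPKM 7 were higher and 4 lower. Gadd45a, a stress sensor, stood at 1.9, 2.18 and 1.97 RPKM in WT and at 12.8, 17.4 and 12.4 in TKO, with a DKO mean of 6.44 ± 1.59 (log2 change 2.32 ± 0.17, adjusted p = 4.35e-06).

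Genes of the chromatin machinery were read against all genes tested, of which 31.9% were higher and 20.7% lower with a median of 0.096. Of 34 PRC1 genes tested 17 were higher (50%) and 4 lower (11.8%), with Pcgf1 and Pcgf6 among the latter, and under median-ratio scaling 15 and 8. Bcor, a partner of PCGF1, stood at 0.83, 0.62 and 0.93 RPKM in WT and at 6.05, 5.88 and 5.22 in TKO, with a DKO mean of 8.23 ± 1.07 (log2 change 1.91 ± 0.12, adjusted p = 2.16e-06), and its relative Bcorl1 rose by 0.99 ± 0.15. Kdm2b, which brings the PCGF1 complex to CpG islands, stood at 42.6, 51.9 and 45.6 RPKM in WT and at 130.5, 94.1 and 101 in TKO, with a DKO mean of 57 ± 5.92 (log2 change 1.19 ± 0.13, adjusted p = 5.06e-05). TKO exceeded DKO for Kdm2b by 0.91 ± 0.13 (adjusted p = 0.000331), whereas for Bcor the DKO mean was above every TKO library. Of 14 PRC2 genes 7 were higher and 2 lower, with 5 and 3 under median-ratio scaling and a median of 0.17, which is 0.08 above that of all genes. Suz12, a core subunit, stood at 47.1, 48.6 and 48.3 RPKM in WT and at 72.2, 52.9 and 66.9 in TKO (log2 change 0.40 ± 0.10, adjusted p = 0.00893), and Phf19, an accessory subunit, stood at 6.09, 5.02 and 4.89 RPKM in WT and at 3.3, 2.27 and 1.91 in TKO (log2 change -0.87 ± 0.17, adjusted p = 0.00206). Of 24 H3K4 methyltransferase and demethylase genes 11 were higher and 2 lower, and Cxxc1, which binds CpG in the SET1 complex, stood at 7.31, 9.19 and 8.76 RPKM in WT and at 16.8, 11 and 14 in TKO (log2 change 0.65 ± 0.15, adjusted p = 0.0041). In these 3 genes the WT and TKO libraries did not overlap. Of 15 DNA methylation genes 7 were higher and 2 lower, with a median 0.03 above that of all genes. Uhrf1, which maintains methylation, stood at 74.4, 80.5 and 75.5 RPKM in WT and at 151, 115 and 111 in TKO, with a DKO mean of 61.3 ± 5.3 (log2 change 0.69 ± 0.11, adjusted p = 0.000669). Mbd1, a reader of methylated DNA, stood at 1.87, 1.43 and 1.68 RPKM in WT and at 0.29, 0.14 and 0.07 in TKO, with a DKO mean of 3.85 ± 0.248 (log2 change -1.19 ± 0.12, adjusted p = 3.6e-05), so the 3 genotypes were ordered with DKO highest and TKO lowest.

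Genes near the deleted ones were listed. Within 50000 bases of Pcgf1 7 genes were tested, 1 higher and 2 lower. The higher one was Lbx2 (chromosome 6, 83086365 to 83088243), a homeobox gene that lies 5510 bases from Pcgf1. It stood at 4.63, 3.88 and 5.9 RPKM in WT and at 94.3, 90.5 and 98.9 in TKO, with a DKO mean of 83.5 ± 13.7 (log2 change 4.06 ± 0.14, adjusted p = 5.12e-08), and its change in PRC1-CD, whose label names no deletion of Pcgf1, was 0.77 ± 0.19 (adjusted p = 0.0247), a call lost without any 1 of the 4 libraries (adjusted p = 0.138 and 0.0754 without PRC1-WT 1 or 2, 0.12 and 0.189 without PRC1-CD 1 or 2). The part of the deleted allele in the value of Lbx2 was not tested. Near Pcgf6 5 genes were tested, with 3 higher by 0.39 to 0.70, and near Kmt2b 8 genes, with Hspb6 higher by 0.44.

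Calls were also compared across the whole tables. TKO and PRC1-CD both had tests of 12093 genes, and 865 rose in each, which is 22.8% of those higher in TKO and 56.1% of those higher in PRC1-CD. Over all 12093 genes, 12.7% were higher in PRC1-CD and 31.4% in TKO. A further 343 were lower in both (13.5% and 47.5%, beside 5.97% lower in PRC1-CD and 21.1% in TKO over all), and 74 were higher in TKO and lower in PRC1-CD, with 174 the other way round. These counts depended on each library: without PRC1-WT 1, PRC1-WT 2, PRC1-CD 1 or PRC1-CD 2, in that order, 1156, 1041, 1431 and 1220 genes were higher in PRC1-CD and 169, 197, 112 and 132 lower. Those higher in TKO as well then numbered 479, 426, 456 and 402, and those lower in TKO as well 89, 90, 57 and 62. At 2-fold or more, 331 were higher in both (49.6% of those in TKO and 36.8% of those in PRC1-CD, beside 7.44% higher in PRC1-CD and 5.52% in TKO over all) and 51 lower in both (9.34% and 23.8%, beside 1.77% and 4.52%). Hmgn3, a nucleosome-binding protein gene, stood at 8.63, 6.44 and 6.02 RPKM in WT and at 66.5, 77.8 and 63.3 in TKO (log2 change 3.14 ± 0.30, adjusted p = 2.59e-05), and was higher by 4.06 ± 0.20 in PRC1-CD (adjusted p = 9.17e-05). Spam1, a sperm hyaluronidase gene, stood at 14.6, 14.2 and 14.6 RPKM in WT and at 4.78, 2.47 and 2.93 in TKO (log2 change -1.85 ± 0.17, adjusted p = 2.43e-05), and changed by -1.72 ± 0.19 in PRC1-CD (adjusted p = 0.00101). Both genes moved the same way in the 2 tables. Opposite directions were seen for Defb41, a defensin gene, which stood at 50.7, 45 and 33.5 RPKM in WT and at 565, 882 and 806 in TKO (log2 change 4.09 ± 0.37, adjusted p = 1.81e-05) and changed by -5.33 ± 0.17 in PRC1-CD (adjusted p = 5.25e-05). The small nucleolar RNA Snora47 stood at 90.3, 149 and 90.8 RPKM in WT and at 329.7, 233 and 249 in TKO (log2 change 1.32 ± 0.23, adjusted p = 0.0009), against -2.28 ± 0.29 in PRC1-CD (adjusted p = 0.00195, and 0.0504 without PRC1-WT library 2). Tuba1a, a tubulin gene, stood at 0.95, 0.51 and 0.96 RPKM in WT and at 13.8, 20.7 and 13.9 in TKO (log2 change 3.23 ± 0.23, adjusted p = 4.35e-06), with 0.13 ± 0.20 in PRC1-CD (adjusted p = 0.682, a value that ranged from -0.08 to 0.33 when 1 library was left out).

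Few of the oocyte changes had a call in matTKO morulae. Among 9078 genes tested at each stage, 7 rose at both, which is 58.3% of the 12 higher in morulae. A further 19 were lower in both, which is 46.3% of the 41 lower in morulae, while 7 and 2 had opposite calls. By chromosome, 6 of 34 X-linked genes that fell at least 2-fold in TKO and 18 of 220 other X-linked genes were lower in morulae. Of 8675 autosomal genes 17 were lower there. The part of embryo sex, which is not given, in this overlap was not tested. Over all 9078 genes, 33.3% were higher and 18.6% lower in TKO oocytes, and 0.132% and 0.452% in morulae. Over the other settings the genes higher in both ranged from 3 to 16 and those lower in both from 9 to 39. The genes lower in both with the largest changes were Xlr3b, Fmr1nb, Xlr5b, Xlr3c and Xlr5c, then Fam173a, Gstp2, Lage3, Atxn7l3b and the predicted gene Gm31704. Gstp2, a glutathione transferase gene, stood at 23.1, 17.8 and 23.5 RPKM in WT and at 5.81, 10.2 and 5.51 in TKO (log2 change -1.50 ± 0.20, adjusted p = 0.000204). In WT morulae it ranged from 172 to 473 TPM with a median of 280 and in matTKO morulae from 49.8 to 231 TPM with a median of 129.8 (log2 change -1.15 ± 0.28, n = 10 each, limma adjusted p = 0.0483). The groups of embryos overlapped between the highest matTKO and the lowest WT values. Among genes higher in both, Ly6a, a surface antigen of stem cells, stood at 9.51, 10.4 and 10.4 RPKM in WT and at 18.4, 46.5 and 18.8 in TKO (log2 change 1.24 ± 0.33, adjusted p = 0.01), and ranged from 722 to 2837 TPM with a median of 1170 in WT morulae and from 1213 to 8055 TPM with a median of 2695 in matTKO. Without TKO library 2, the highest, its log2 change in oocytes was 0.82 (adjusted p = 0.0132). In morulae the calls of Gstp2, Ly6a, Lage3, Xlr3c and Xlr5c were lost with a pseudocount of 0.1 (adjusted p = 0.0646, 0.0608, 0.0523, 0.11 and 0.0846), those of Ly6a and Xlr3c under median-ratio scaling (0.0581 and 0.0503), and that of Xlr3c with a minimum mean of 5 (0.0525). For Zfp the list median in morulae was 0, with 1 higher and 0 lower of 188, and for ribosomal proteins -0.05 with 0 of 84 called, beside the oocyte values given above. The 8 vomeronasal receptor genes that were tested in oocytes had 1 higher and 1 lower in TKO.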

How the data were processed

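RNA was measured with SMART-Seq v4 cDNA and Nextera XT libraries, per the labels' protocols, a chemistry that does not mark strand. The submitters' processing notes name mm10 and GRCm38, featureCounts 1.6.0, RSEM 1.3.1, STAR (2.7.6 and 2.7.3) and Trim Galore 0.6.4, without saying which made each table. The authors deposited the oocyte tables as RPKM. Morula values, though deposited under the same unit name, sum to nearly the same total in every library and were taken as TPM made by the authors. Depth is unknown.

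From the deposited values, 27 symbols turned into calendar dates were dropped. Genes with a mean of at least 1 in either group were tested with limma 3.58.1 in R 4.3.3 on log2(value + 1), with trend, and p-values were adjusted by Benjamini-Hochberg over all genes tested, with calls at 0.05. WT, DKO and TKO shared 1 estimate of the spread. Changes are given ± SE and levels ± SD. The fit was tested on simulated data. Positions and promoters are from RefSeq on GRCm38.p6, where 12161 of the 12455 genes tested were placed, and the first listed promoter window was used. The genes compared and all gene lists, taken from general knowledge, were chosen with earlier results of these data known. Genes were named by the largest changes, the largest differences in RPKM and the largest changes at 100 RPKM or more. They were also named by the 4 largest changes of each list, calls shared with PRC1-CD or morulae, and runs of neighbours. The rule of the largest changes took only called genes whose WT and TKO libraries did not overlap. Their higher group also had to reach a mean of 5 RPKM. For genes named by that rule the lack of overlap was set by the choice. Others, such as Gpx1, Hsp90b1, Rps16, Sox2, Uhrf1 and Zfp160, were chosen after their values were seen. Alternatives were another pseudocount, other filters, other scalings, the 6 WT and TKO libraries alone, a replicate block and leaving out each library.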

Additional observations from a re-analysis of the deposited data

Results flagged for a closer look

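Of 34 groups of 10 morulae examined for 17 genes, 6 had a library whose distance to its nearest neighbour was a large part of the range of its group, where about 1 group in 20 would be picked by chance. The values are this gap divided by the range, both taken on log2(TPM + 1), whereas the levels are given in TPM. In WT morulae, Fmr1nb had its lowest library at 210.9 TPM (0.716), Xlr5b its lowest at 0.4 TPM (0.585) and Pla2g7 its highest at 6.88 TPM (0.517). In matTKO morulae, the lowest library stood at 2.7 TPM for Fam173a (0.559), at 21.7 TPM for Atxn7l3b (0.526) and at 28.1 TPM for Lage3 (0.487).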

How the results depend on the processing

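Over the 14 alternatives the count of genes higher in TKO ranged from 3163 to 4252 (3979 as reported) and of genes lower from 2143 to 3276 (2578). Leaving out 1 library gave 3204 to 3955 higher and 2143 to 2593 lower. Replicate numbers did not pair the libraries (correlations of same-numbered libraries from -0.048 to 0.111), and with the replicate block 3831 genes were higher and 2474 lower. Single values changed sign under quantile normalization for H1foo (0.131, adjusted p = 0.0457) and Oosp1 (0.0359, adjusted p = 0.568) in TKO against WT, and for Ldhb (0.0349, adjusted p = 0.783) in TKO against DKO.

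The counts of the smaller comparisons moved more, and the cause was not tested. In PRC1-CD, a minimum mean of 5 RPKM, which tests fewer genes, gave 1089 higher, 417 of them also higher in TKO. Lower genes numbered 1457 under quantile normalization and 1262 under median-ratio scaling, with 563 and 585 also lower in TKO. Without 1 of the 4 libraries, which leaves 1 library in a group that is assumed to vary like the other, 1041 to 1431 were higher and 112 to 197 lower, and 402 to 479 and 57 to 90 were shared with TKO. In matTKO morulae, a pseudocount of 0.1 gave 8 higher and 16 lower, with 3 and 9 shared. Quantile normalization gave 53 higher, 16 of them shared, and a minimum mean of 5 gave 3 shared higher genes. With the replicate block the counts were 48 and 141, with 12 and 39 shared, although the numbers of the embryos mark no known pairing. Depth is unknown, so the counting error of genes near 1 RPKM could not be estimated.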
